A study of Mus musculus with 48 samples.

Results

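Sinusoidal endothelial cells line the capillaries of the liver, and 35 genes known from them were followed across all cultures: adhesion and junction proteins, receptors for vascular growth factors, scavenger receptors and lectins, secreted and clotting proteins, and transcription factors. The genes were taken by symbol from a list of endothelial genes, which was chosen with earlier results of these data known. Each was represented by 1 probe set, so that all 35 were measured among 19505 genes. The arrays came from 2 kinds of mouse macrophage. Kupffer cells had been sorted from the liver of BALB/c males by F4/80, a macrophage surface antigen, and monocytes from the blood of these animals by CD115, the receptor for MCSF, the factor on which macrophages depend. Every culture first spent 1 day in MCSF, and was then kept for 1 or 3 more days either in MCSF alone, as the control, or with CD146 cells (sinusoidal endothelial cells, named for the surface protein encoded by Mcam), Ito cells (hepatic stellate cells, which store vitamin A) or hepatocyte growth factor (HGF). The 16 groups by cell, addition and time held 3 arrays each, 48 in all, and the titles call the replicates biological. The labels do not give the age of the mice, do not say if additions replaced MCSF or came on top of it, and do not say whether added cells shared a compartment with the macrophages or were removed before lysis. The comparisons below ask whether the endothelial genes were higher where CD146 cells had been added, and whether they were already present in Kupffer cultures to which no cell was added.

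The sinusoid is a fenestrated vessel without a continuous basement membrane, and its lining clears waste proteins and hyaluronan from blood through stabilins and lectins. Vascular endothelial growth factor acts on these cells through Kdr, angiopoietins through Tek with Tie1 beside it, and ETS family factors such as Erg hold the endothelial programme in place. Kupffer cells lie within the sinusoid against this lining, whereas monocytes circulate in blood.

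Levels are log2 signals, and differences are log2 differences of group means (n = 3 arrays each) ± the standard error of a limma fit over all 48 arrays, with p adjusted over all genes. A gene is called higher or lower where the adjusted p is under 0.05. The negative control probe sets averaged between 5.18 and 6.02 by group, and that mean serves here as a background level. It is a strict one: on 48 of 48 arrays the median of all genes lay under it. A gene with both groups under it gives a difference between background values, which bounds nothing. A comparison in which the genes as a whole shifted, with a median difference beyond 0.1 in size, is given with that shift, and its gene differences are printed relative to it, while calls are those before it is taken off. The standard error is shared by all groups and is too small for the Kupffer control of 1 day, whose arrays lay far apart. Core macrophage genes averaged 14.39 to 16.49 by group. In bulk RNA, a change in the number of endothelial cells and a change in RNA per cell cannot be told apart.

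As a check of the label, the members were set against the negative controls. Mcam, which encodes CD146, lay below them in the mean of all 16 groups, and so did Flt1, Tek, Clec4g, Gpr182, Plvap, Cldn5, Sox18, Nos3, Bmp2, Wnt2 and Ramp2, 12 genes in all; this does not show that they were absent. Stab2, the hyaluronan receptor of the sinusoid, was above them in 2 groups and Lyve1, another hyaluronan receptor, in 1. The genes that stood at least 2 log2 units above the controls in some group were 16, and most of these, such as Cdh5 (VE-cadherin), Pecam1, Kdr and Erg, are expressed by blood vessels in general. Eng, Oit3, Calcrl and Igfbp7 were above the controls in all 16 groups, monocytic ones included, and so do not mark endothelial cells alone in these cultures.

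Promoters of 6 members are printed to show the sequence from which the described genes are read and the ETS motifs in it, since Erg and other ETS factors are measured below. These are the 250 bases before the transcription start in RefSeq's table for GRCm38.p6, 5′ to 3′ on the gene's strand, with CAGGAA or CCGGAA on either strand in capitals. Adgrl4 lies at chr3:151437632-151437881 (plus strand), Emcn at chr3:137340828-137341077 (plus strand), Tie1 at chr4:118489850-118490099 (minus strand), Robo4 at chr9:37401722-37401971 (plus strand), Cd34 at chr1:194938571-194938820 (plus strand) and Calcrl at chr2:84425267-84425516 (minus strand).
Adgrl4: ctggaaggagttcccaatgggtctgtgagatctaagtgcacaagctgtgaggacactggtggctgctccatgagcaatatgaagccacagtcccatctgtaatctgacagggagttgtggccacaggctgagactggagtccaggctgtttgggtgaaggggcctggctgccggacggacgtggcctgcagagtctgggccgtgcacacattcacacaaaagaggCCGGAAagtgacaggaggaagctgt
Emcn: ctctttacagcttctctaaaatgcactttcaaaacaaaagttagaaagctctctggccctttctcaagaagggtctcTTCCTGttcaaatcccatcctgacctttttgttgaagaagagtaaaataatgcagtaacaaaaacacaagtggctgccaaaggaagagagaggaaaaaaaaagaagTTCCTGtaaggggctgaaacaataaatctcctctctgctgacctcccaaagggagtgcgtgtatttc
Tie1: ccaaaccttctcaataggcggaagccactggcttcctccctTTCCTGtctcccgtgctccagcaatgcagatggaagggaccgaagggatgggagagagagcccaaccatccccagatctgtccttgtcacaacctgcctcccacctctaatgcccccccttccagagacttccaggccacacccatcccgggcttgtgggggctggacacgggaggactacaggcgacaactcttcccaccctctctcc
Robo4: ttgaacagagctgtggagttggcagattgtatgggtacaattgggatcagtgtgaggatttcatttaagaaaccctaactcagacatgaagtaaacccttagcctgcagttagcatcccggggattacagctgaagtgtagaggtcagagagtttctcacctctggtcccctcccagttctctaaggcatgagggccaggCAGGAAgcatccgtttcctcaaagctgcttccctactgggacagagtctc
Cd34: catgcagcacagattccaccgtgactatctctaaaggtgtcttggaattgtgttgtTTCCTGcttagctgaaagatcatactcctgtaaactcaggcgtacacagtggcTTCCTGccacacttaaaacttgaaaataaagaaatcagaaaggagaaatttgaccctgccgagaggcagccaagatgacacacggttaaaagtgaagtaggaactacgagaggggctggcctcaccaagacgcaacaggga
Calcrl: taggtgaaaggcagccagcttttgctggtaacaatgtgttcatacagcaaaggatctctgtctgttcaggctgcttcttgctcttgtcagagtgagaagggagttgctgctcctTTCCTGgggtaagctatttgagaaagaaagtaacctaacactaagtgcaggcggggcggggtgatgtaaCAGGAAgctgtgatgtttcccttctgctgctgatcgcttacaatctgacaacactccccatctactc
The first 4 genes were highest in Kupffer control or HGF cultures, and the last pair were highest in Kupffer cells with CD146 cells. Promoters were matched for 21 members, 23 in all, of which Erg has 3. One or both ETS motifs stood in 11 of 23 (47.8%), against 35.1% of the 32851 promoters in the table, searched in windows of the same length. The SOX motif ACAAT was found in 34.8% of member promoters and 27.7% of all, its longer form AACAAT, which is contained in the first count, in 17.4% and 9.4%, and the GATA motif AGATAA in 1 of 23 and 3281 of 32851, each on both strands. A match describes the letters only.

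The members were highest in Kupffer cells of 1 day in MCSF alone or with HGF. Their mean over all 35 was 7.47 ± 0.99 (SD, n = 3 arrays) in the Kupffer control of 1 day and 7.13 ± 0.35 with HGF, and lower with CD146 cells (5.57 ± 0.04) and with Ito cells (5.25 ± 0.03). After 3 days the Kupffer control had fallen to 4.62 ± 0.03, while the cultures with additions lay above it: 6.07 ± 0.32 with HGF, 5.51 ± 0.13 with Ito cells and 5.46 ± 0.07 with CD146 cells. The monocytic groups lay between 3.77 (HGF, 1 day) and 4.91 (CD146 cells, 3 days), so the 3-day Kupffer control lay within their range. Above the negative controls were 22 members in the Kupffer control of 1 day, 21 with HGF, 12 with CD146 cells and 4 in the Kupffer control of 3 days, against 5 to 8 in the monocytic groups. By group mean, 20 members were highest in the Kupffer control of 1 day and 7 in Kupffer cells with HGF of 1 day. The other 8 were Cd34 and Calcrl (Kupffer cells with CD146 cells, 3 days), Emcn and Igfbp7 (Kupffer cells with HGF, 3 days), and Selp, Vwf, Flt1 and Wnt2, each highest in a monocytic group.

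**Figure D1:**
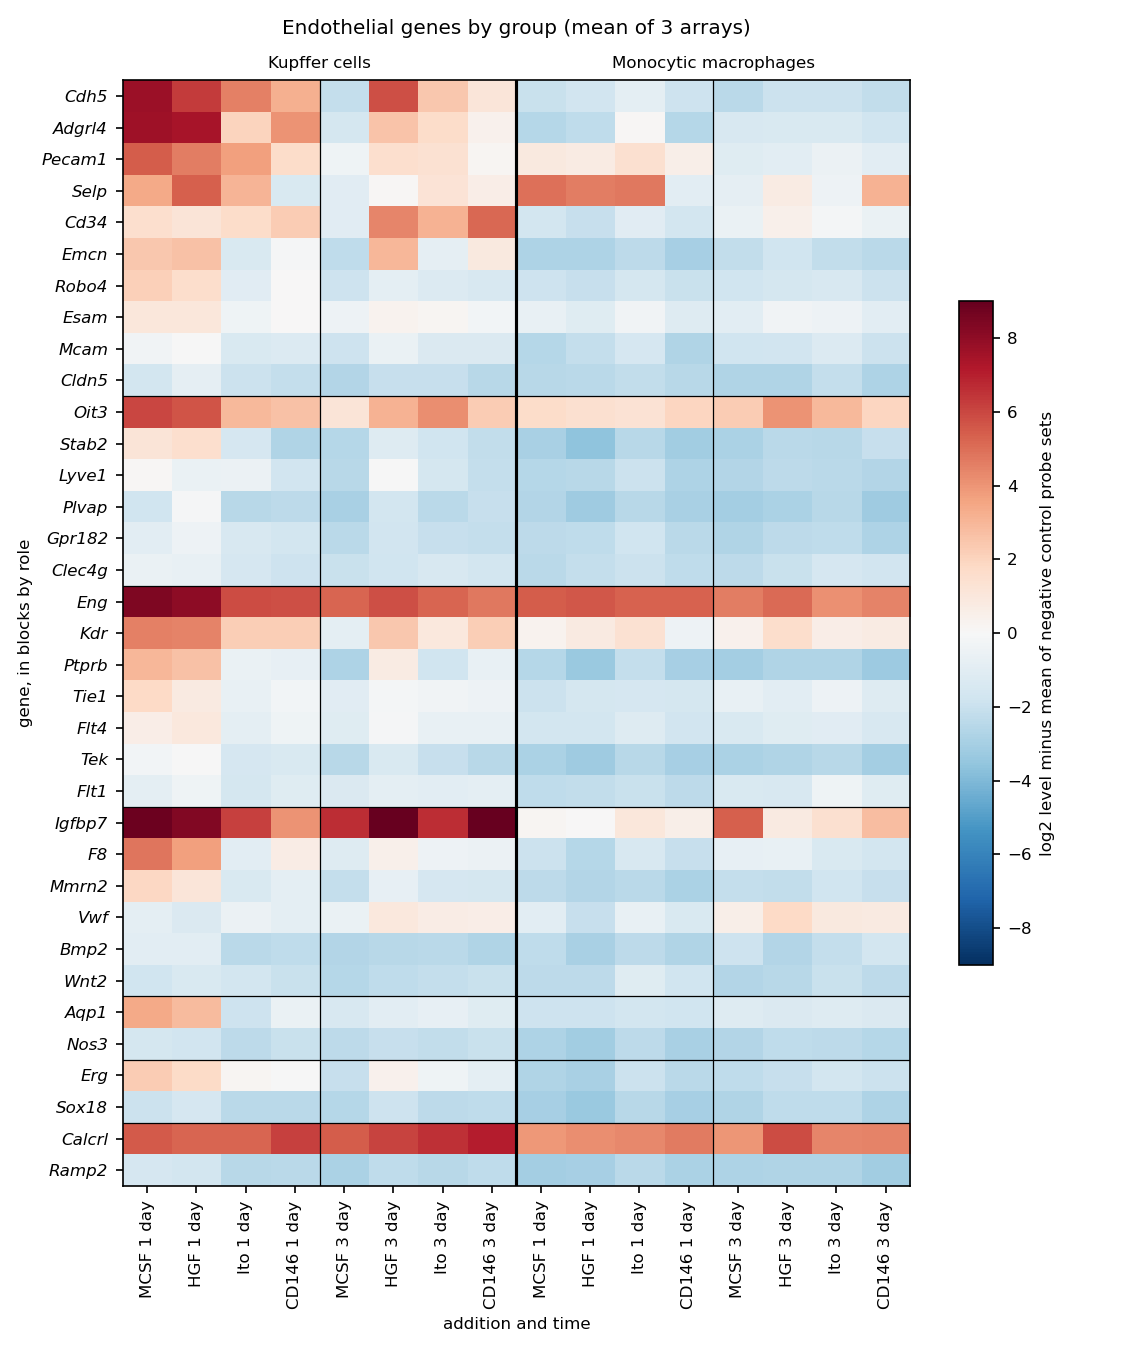
Mean log2 level of each endothelial gene (rows, in blocks by role) minus the mean of the negative control probe sets, in the 16 groups (columns; 3 arrays each; red above the controls, blue below). In the Kupffer control column of 1 day 22 rows are red and in that of 3 days 4, and Igfbp7, Eng, Calcrl and Oit3 are red in all 16 columns.

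The MCSF controls of 1 day compared Kupffer cells with monocytic macrophages without any addition. Of the 35 members, 30 were higher in Kupffer cells and 1 lower, where 9.73% of all genes were called higher and 11.6% lower; the median difference was 2.38 over the members and -0.07 over all genes. In 9 of the 31 called genes both groups were under the negative controls. With only the arrays compared in the fit, 20 members were higher and 1 lower, and without the 3 arrays that stood apart (replicate 1 of the Kupffer control of 1 day, replicate 2 of Kupffer cells with HGF of 1 day, and replicate 3 of the monocytic control of 3 days) 30 and 1. Of the adhesion, junction and surface genes 8 of 10 were higher, of the growth factor receptors 7 of 7, and of the secreted and clotting genes 4 of 6. Of the group of sinusoidal uptake and lectin genes, which also holds Oit3 and Plvap, 5 of 6 were higher.

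Cdh5, the cadherin of endothelial junctions, read 15.86, 12.91 and 10.87 on the Kupffer arrays and 3.47, 3.87 and 3.98 on the monocytic ones (9.44 ± 0.55, adjusted p = 1.12e-16). Adgrl4, an adhesion receptor of developing vessels, read 15.13, 12.91 and 11.39 against 3.03, 3.45 and 3.26 (9.90 ± 0.48, adjusted p = 3.41e-19). For both genes every Kupffer array lay above every monocytic array, and replicate 1 was the highest and replicate 3 the lowest of the Kupffer arrays. Pecam1, which joins endothelial cells and is also made by leukocytes and platelets, read 12.64, 10.36 and 9.93 against 6.74, 6.95 and 6.36 (4.29 ± 0.37). Emcn, a sialomucin of capillary and venous endothelium, read 9.15, 7.99 and 6.60 against 3.31, 3.15 and 2.66 (4.87 ± 0.36). The Emcn groups did not overlap, and the monocytic arrays were all under the negative controls. Robo4, an endothelial receptor that stabilises vessels, also differed without overlap (3.69 ± 0.41). Cd34, a sialomucin of endothelium and of progenitor cells, read 7.82, 6.76 and 6.43 against 4.21, 4.19 and 4.03 (2.86 ± 0.40).

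Among the receptors, Kdr, the main signalling receptor for VEGF, read 11.80, 9.69 and 8.74 in Kupffer cells and 6.46, 5.79 and 6.20 in monocytic cells (3.92 ± 0.45, adjusted p = 1.53e-08). Ptprb, the endothelial phosphatase that acts on Tek and Cdh5, read 9.98, 8.81 and 6.70 against 3.17, 3.56 and 3.03 (5.24 ± 0.46). Neither gene overlapped between the groups. Tie1 also differed (3.43 ± 0.33). Eng, a co-receptor for BMP ligands that macrophages make too, read 15.76, 13.79 and 12.19 against 11.29, 11.30 and 11.08 (2.69 ± 0.45), and this call was lost when only these 6 arrays were fitted (adjusted p = 0.0888).

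In the uptake and lectin group, Oit3, a secreted protein of the sinusoidal lining, read 13.11, 11.51 and 9.99 against 7.30, 7.20 and 7.82 (4.10 ± 0.42). Stab2 was higher by 3.77 ± 0.31, from a monocytic level under the negative controls. Clotting factor VIII, encoded by F8 and made chiefly by sinusoidal endothelium, read 11.50, 10.64 and 8.86 against 3.96, 3.41 and 4.32 (6.44 ± 0.42, adjusted p = 3.4e-15). No F8 array of one group reached the other. Igfbp7, a secreted protein of vessel walls, read 15.09, 14.96 and 12.95 against 5.56, 6.12 and 6.36 (8.32 ± 0.41, adjusted p = 3.41e-19), again without overlap. The water channel gene Aqp1 read 11.78, 7.65 and 7.41 against 4.05, 3.79 and 3.90 (5.04 ± 0.52). Its replicate 1 stood far above the other Kupffer arrays. Erg read 9.15, 7.85 and 6.50 against 3.14, 2.84 and 3.31 (4.74 ± 0.38), with all Kupffer arrays higher.

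Calcrl, the receptor that pairs with Ramp2 to bind adrenomedullin, read 12.22, 10.68 and 10.12 against 9.66, 9.99 and 9.44 (1.31 ± 0.33), and without Kupffer replicate 1 its difference was 0.70 with an adjusted p of 0.132; leaving out all 3 arrays named above, or fitting only these 6, ended the call too. Selp (P-selectin, stored in endothelial cells and platelets) was the 1 member lower in Kupffer cells, with 8.05, 9.62 and 9.08 against 10.86, 10.69 and 10.81 (-1.87 ± 0.47); without Kupffer replicate 1 its difference was -1.43 with an adjusted p of 0.0524, and it stayed called without the 3 arrays that stood apart. Platelet genes averaged 7.90 in the Kupffer and 8.39 in the monocytic control of 1 day.

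Markers of other liver cells moved with the endothelial genes in this comparison. Hepatocyte genes were 13 of 18 higher and 2 lower, among them Alb, which encodes albumin (mean 14.94 against 4.94), and bile duct genes 5 of 6 higher and 0 lower, with the duct keratin Krt7 at 5.52 ± 0.50. Over the 3 Kupffer control arrays of 1 day, the member means were 8.51, 7.38 and 6.53, the hepatocyte means 7.59, 6.80 and 6.04, the bile duct means 8.07, 6.83 and 5.69 and the core macrophage means 14.20, 15.52 and 15.48. Replicate 1 was thus highest in endothelial, hepatocyte and bile duct genes and lowest in macrophage genes, and its B cell genes averaged 4.19 against 8.82 and 9.43. The part of these cell types in the endothelial differences was not tested.

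**Figure D2:**
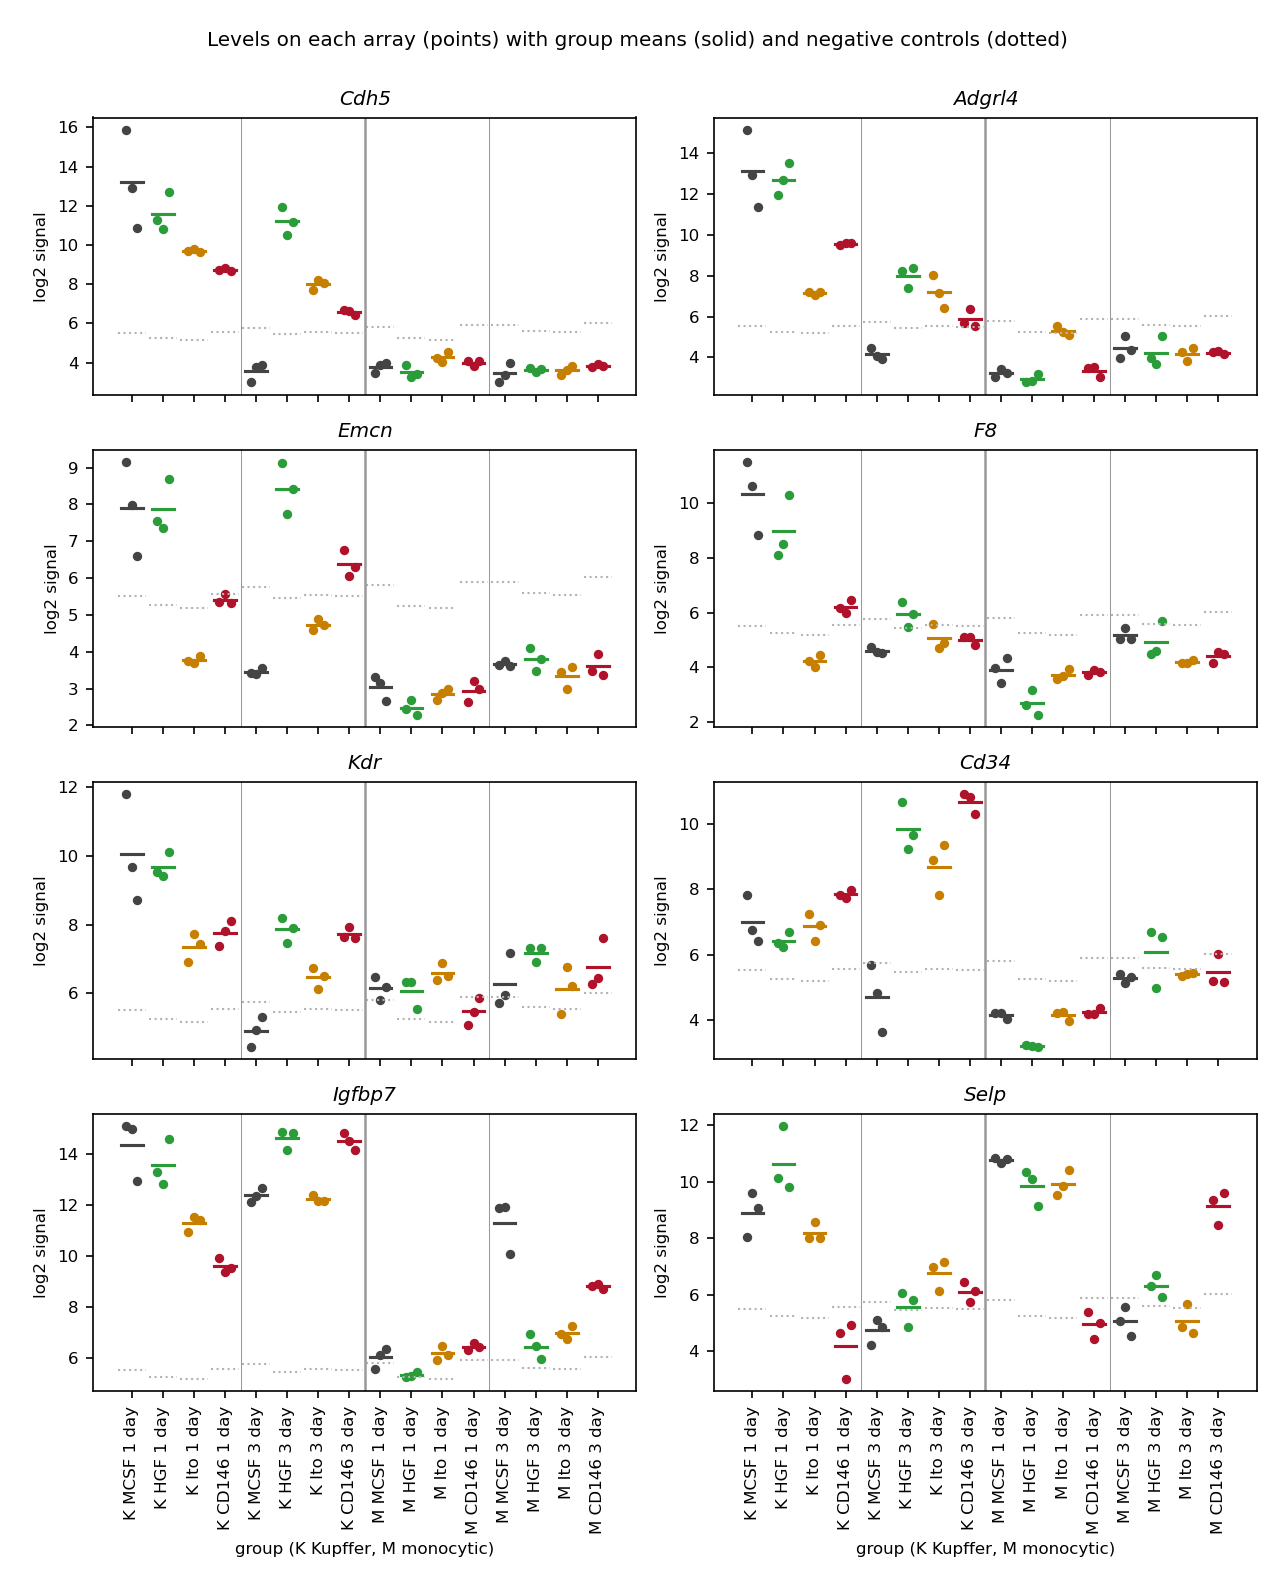
Log2 level of 8 members on each of the 48 arrays (points; K Kupffer, M monocytic), with group means (solid lines) and the mean of the negative control probe sets (dotted). Cdh5, Adgrl4, F8 and Kdr are highest in Kupffer controls and HGF cultures of 1 day, Emcn in Kupffer cells with HGF of 3 days, Cd34 is highest in Kupffer cells with CD146 cells of 3 days, and Selp is high in monocytic cells of 1 day except with CD146 cells.

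From 1 to 3 days in MCSF, 30 of 35 members fell in Kupffer cells and 0 rose, against 10.2% and 21.5% of all genes, with a median shift of 0.15 over all genes. Without the 3 arrays that stood apart, 26 fell and 1 rose. All 10 adhesion, junction and surface genes and all 6 of the uptake and lectin group were among those that fell in the fit of all arrays. Of the latter, Clec4g, Gpr182 and Plvap lay under the negative controls in every group. In 9 of the 30 both times were under the negative controls. Cdh5 went from the levels above to 3.03, 3.78 and 3.90 (-9.79 ± 0.55, adjusted p = 1.96e-17) and Adgrl4 to 4.48, 4.06 and 3.91 (-9.14 ± 0.48, adjusted p = 2.52e-18). These 3-day values lay under the negative controls and overlapped those of the monocytic control of 3 days, 2.99, 3.38 and 3.98 for Cdh5 and 3.96, 5.02 and 4.35 for Adgrl4. F8 fell to 4.73, 4.54 and 4.50 (-5.89 ± 0.42), Kdr to 4.45, 4.93 and 5.31 (-5.33 ± 0.45) and Emcn to 3.41, 3.40 and 3.55 (-4.60 ± 0.36). No array of 3 days reached the lowest array of 1 day in these 5 genes. Further falls were Pecam1 (-5.77 ± 0.37), Ptprb (-5.67 ± 0.46), Oit3 (-4.79 ± 0.42), Aqp1 (-4.78 ± 0.52), Erg (-4.32 ± 0.38), Selp (-4.32 ± 0.47), Robo4 (-3.95 ± 0.41), Stab2 (-3.62 ± 0.31), Eng (-3.09 ± 0.45) and Cd34 (-2.44 ± 0.40). Igfbp7 fell to 12.10, 12.36 and 12.65 (-2.11 ± 0.41).

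Over the same time hepatocyte genes were 1 of 18 higher and 15 lower and bile duct genes 0 of 6 higher and 4 lower, while 12 of 20 Ito cell genes and 8 of 13 core macrophage genes rose. The part of these cell types in the fall of the members was not tested. In monocytic macrophages, from 1 to 3 days, 6 members rose and 2 fell, against 19.5% and 9.82% of all genes at a median shift of 0.13 (4 and 3 after median centring). Of the 6, Flt1, Cd34, F8 and Tie1 were under the negative controls at both times, Vwf (von Willebrand factor) rose by 1.42 ± 0.35, and Igfbp7 rose from 5.56, 6.12 and 6.36 to 11.88, 11.93 and 10.07 (5.15 ± 0.41, adjusted p = 2.32e-13). Ito cell genes were 12 of 20 higher and 0 lower over this time, with a mean of 4.61 at 1 day and 6.68 at 3 days, and replicate 3 was the lowest of the 3-day arrays in this list (6.11) as in Igfbp7. Selp fell from 10.86, 10.69 and 10.81 to 5.09, 5.57 and 4.54 (-5.85 ± 0.47) and Pecam1 by 1.98 ± 0.37, and platelet genes were 1 of 7 higher and 2 lower, with group means of 8.39 and 6.01. The part of Ito cells and platelets in these changes was not tested.

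After 3 days in MCSF 1 member was higher in Kupffer than in monocytic cells and 4 lower, against 6.38% and 5.7% of all genes. Calcrl was the higher one (1.33 ± 0.33), and the lower ones were Kdr (-1.39 ± 0.45), Vwf (-1.28 ± 0.35), Oit3 (-1.26 ± 0.42) and Bmp2 (-0.92 ± 0.25), Bmp2 under the negative controls in both. When single arrays were left out, 2 to 4 members were called, and each of these 4 lower calls was lost without at least 1 array; Kdr's was lost without Kupffer replicate 1 or 2 or monocytic replicate 3 (for the last, -0.93, adjusted p = 0.246), Vwf's without Kupffer replicate 3 or monocytic replicate 2, Oit3's without any 1 of the 6 arrays, and Bmp2's without Kupffer replicate 1 or monocytic replicate 1 or 2.

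CD146 cells were the addition of sinusoidal endothelial cells. In Kupffer cells of 1 day, 22 members were lower with CD146 cells than in the MCSF control and 0 higher, where 2.46% of all genes were called lower and 1.32% higher; the median difference was -1.75 over the members, -1.09 without control replicate 1, and 0.03 over all genes. At an unadjusted p under 0.05 in limma 2 members were higher. The 22 called genes had no overlap between the groups, but overlap was not counted over all genes, so this adds nothing to the calls. With only these 6 arrays in the fit 4 were lower (Stab2, Igfbp7, Selp and F8) and 0 higher, and without the 3 arrays that stood apart 21 were lower and 1 higher.

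With CD146 cells Cdh5 read 8.72, 8.82 and 8.66 (-4.48 ± 0.55, adjusted p = 3.47e-07), under every control array, and Adgrl4 read 9.52, 9.60 and 9.60 (-3.57 ± 0.48, adjusted p = 2.06e-06). Both stayed above every array of the monocytic control. F8 read 6.15, 5.99 and 6.45 (-4.13 ± 0.42), Pecam1 7.10, 7.45 and 7.02 (-3.79 ± 0.37) and Kdr 7.38, 7.81 and 8.11 (-2.30 ± 0.45). In each of these genes the 3 arrays with CD146 cells lay closer together than the control arrays and below all of them. Also lower were Emcn (-2.49 ± 0.36), Robo4 (-2.07 ± 0.41), Aqp1 (-3.99 ± 0.52), Oit3 (-3.34 ± 0.42), Ptprb (-3.64 ± 0.46), Eng (-2.53 ± 0.45), Erg (-2.31 ± 0.38) and Stab2 (-3.82 ± 0.31). Igfbp7 read 9.93, 9.37 and 9.52 (-4.73 ± 0.41, adjusted p = 1.18e-10) and Selp 4.66, 3.03 and 4.92 (-4.71 ± 0.47, adjusted p = 2.28e-09). Cd34 and Calcrl were not called: Cd34 read 7.83, 7.73 and 7.97 and Calcrl 11.87, 11.79 and 11.49, both overlapping their control arrays. Markers of other cells were lower in the same comparison: bile duct genes were 0 of 6 higher and 4 lower (mean 5.42 against 6.86, Krt7 -2.54 ± 0.50), B cell genes 0 of 7 higher and 6 lower (4.97 against 7.48), hepatocyte genes 0 of 18 higher and 3 lower (6.16 against 6.81) and genes of Kupffer cell identity 0 of 14 higher and 4 lower (7.02 against 7.95). In the B cell genes the control arrays averaged 4.19, 8.82 and 9.43 and those with CD146 cells 5.03, 4.85 and 5.02. Control replicate 1 thus lay below every array with CD146 cells in that list. The part of these cell types in the lower endothelial levels was not tested.

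In monocytic macrophages, where most of these genes were at background in the control, few were called with CD146 cells at 1 day: 0 of 35 were higher and 1 lower, against 1% and 1.33% of all genes, and the 34 not called ranged from -0.67 to 0.85. At an unadjusted p under 0.05 in limma, 2 members were higher and 1 lower. Cdh5 read 4.07, 3.85 and 4.11, Adgrl4 3.49, 3.52 and 3.06, Emcn 2.65, 3.20 and 3.00 and F8 3.71, 3.92 and 3.83 with CD146 cells, all under the negative controls. The lower member was Selp, with 5.41, 4.45 and 5.02 against 10.86, 10.69 and 10.81 in the control (-5.83 ± 0.47, adjusted p = 1.25e-11). In both kinds of macrophage, then, every Selp array with CD146 cells of 1 day lay below every control array. Platelet genes there averaged 8.22 with CD146 cells and 8.39 in the control of monocytic cells, and 7.65 and 7.90 in Kupffer cells. After 3 days 1 member was higher and 1 lower, against 1.22% and 1.18% (together 2.4%), with the others between -0.77 and 0.95. Selp was now the higher one, 9.36, 8.47 and 9.59 against 5.09, 5.57 and 4.54 (4.07 ± 0.47, adjusted p = 2.59e-07), and Igfbp7 the lower one, 8.81, 8.90 and 8.68 against 11.88, 11.93 and 10.07 (-2.49 ± 0.41, adjusted p = 0.000124). Platelet genes averaged 6.36 with CD146 cells and 6.01 in the control of 3 days. The part of platelets in these Selp differences was not tested. Cdh5 read 3.76, 3.92 and 3.84 and Emcn 3.49, 3.94 and 3.38, still under the negative controls, and Kdr read 6.28, 6.44 and 7.60, overlapping the control's 5.72, 5.95 and 7.19.

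In Kupffer cells of 3 days the sign was the other way. With CD146 cells 12 members were higher than in the control and 0 lower, against 14% and 12.4% of all genes. After quantile normalization 8 were higher and after median centring 9, and 9 to 10 were called when single arrays were left out. Cd34 read 10.93, 10.84 and 10.32 against 5.68, 4.82 and 3.63 in the control (5.99 ± 0.40, adjusted p = 1.24e-15), the widest gap of these members. Cdh5 read 6.70, 6.61 and 6.45 against the 3.03, 3.78 and 3.90 given above (3.02 ± 0.55, adjusted p = 2.87e-05), Emcn 6.77, 6.05 and 6.30 against 3.41, 3.40 and 3.55 (2.92 ± 0.36) and Kdr 7.65, 7.93 and 7.61 against 4.45, 4.93 and 5.31 (2.83 ± 0.45). None of these 4 overlapped, and the control arrays of all 4 lay under the negative controls. Igfbp7 read 14.82, 14.50 and 14.17 against 12.10, 12.36 and 12.65 (2.12 ± 0.41), Calcrl 12.62, 12.60 and 12.41 against 10.59, 11.54 and 11.40 (1.37 ± 0.33) and Adgrl4 5.69, 6.37 and 5.54 against 4.48, 4.06 and 3.91 (1.72 ± 0.48). Ptprb was higher too (1.88 ± 0.46), with both groups under the negative controls. The calls of Erg (1.00 ± 0.38) and Selp (1.36 ± 0.47) were lost after quantile normalization (adjusted p = 0.136 and 0.0641) and without single arrays; with the replicate number as a block that of Erg was lost (adjusted p = 0.0507). Erg missed the threshold without any 1 of the CD146 arrays and without MCSF replicate 2 or 3, and Selp without CD146 replicate 1 or 3 or MCSF replicate 1.

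Beside the members at 3 days, most bile duct genes were higher and most core macrophage genes lower. Of all genes 14% were called higher and 12.4% lower, and the hepatocyte counts were near these shares. With CD146 cells the bile duct genes were 5 of 6 higher and 0 lower (Krt7 9.53 ± 0.50), the hepatocyte genes 3 of 18 higher and 1 lower (Apob 5.13 ± 0.38 and Alb 4.05 ± 0.47), and the core macrophage genes 0 of 13 higher and 9 lower (Aif1 -8.23 ± 0.36 and Mertk, the receptor for dying cells, -7.14 ± 0.32). The bile duct means were 7.99, 8.01 and 7.57 with CD146 cells and 4.02, 4.05 and 3.96 in the control, and the core macrophage means 14.42, 14.37 and 14.36 and 16.68, 16.43 and 16.36. The part of these cells in the higher levels of the endothelial genes was not tested. In monocytic cells of 3 days with CD146 cells, 0 bile duct and 0 hepatocyte genes were called higher by limma (1 and 1 at an unadjusted p under 0.05). Of all genes 1.22% were called higher there, against 14% in Kupffer cells, so the 0 does not show that these genes were unchanged.

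**Figure D3:**
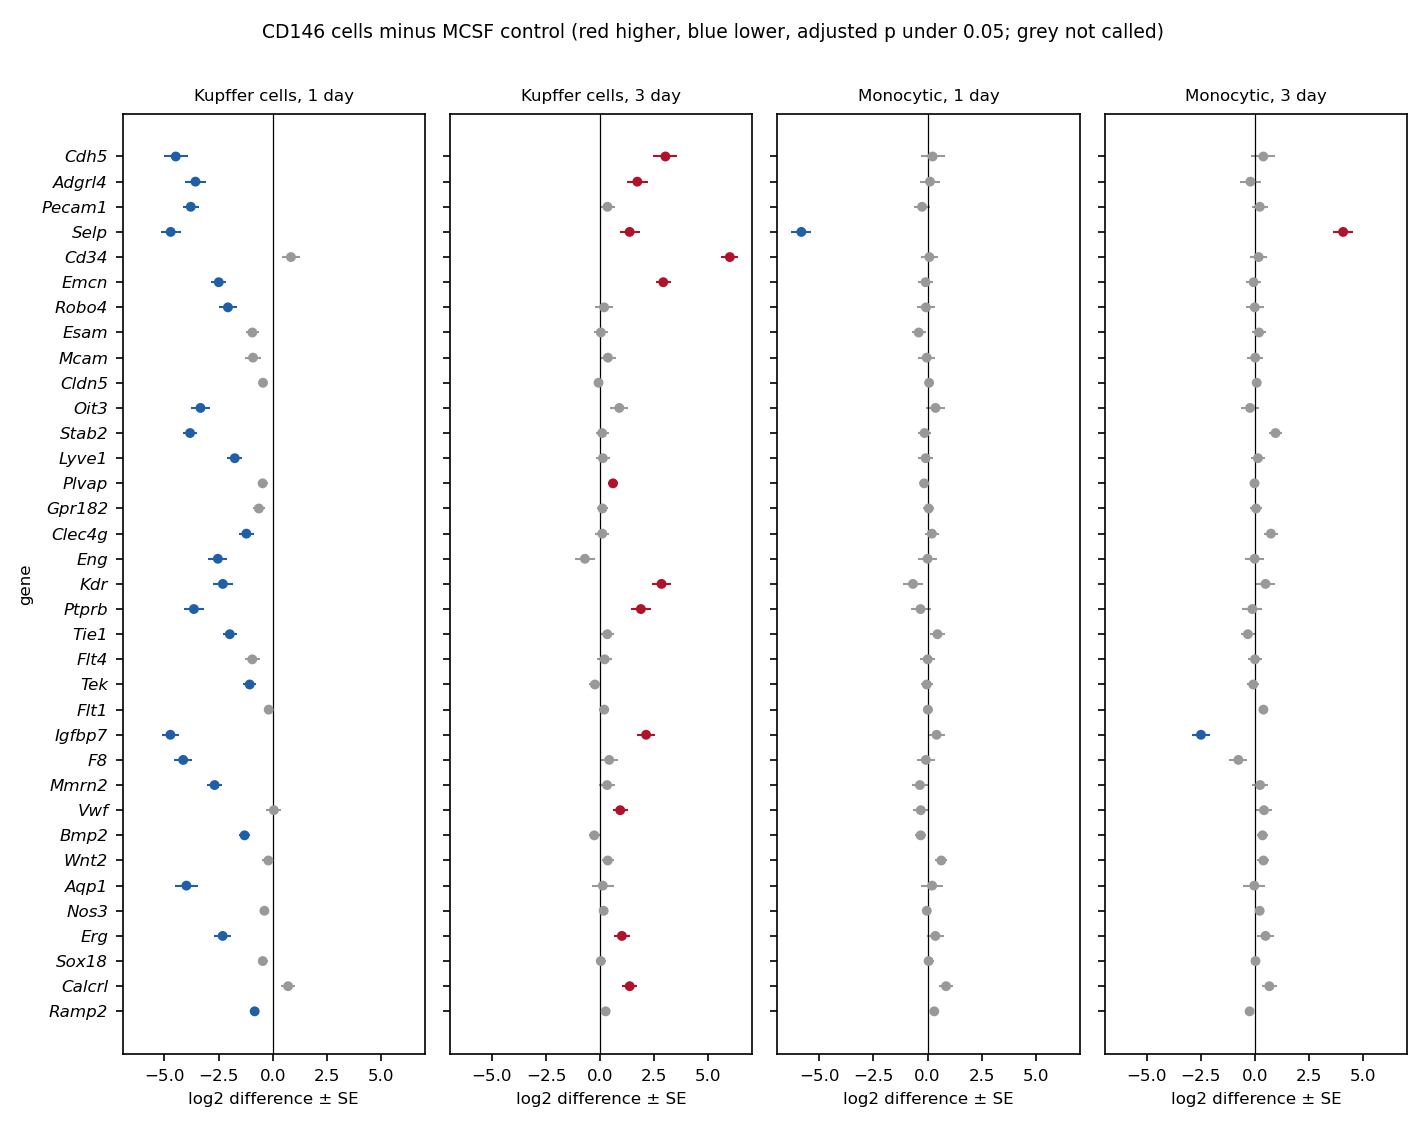
Log2 difference, CD146 cells minus MCSF control, of each endothelial gene in Kupffer cells and monocytic macrophages after 1 and 3 days (points, with the standard error of the limma fit as bars; red higher, blue lower, grey not called). In Kupffer cells 22 genes are lower at 1 day and 12 higher at 3 days, and in monocytic macrophages 1 is called at 1 day and 2 at 3 days.

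The difference between the cells in their response to CD146 cells was tested as an interaction. At 1 day the response was lower in Kupffer cells for 15 members and higher for 0, against 0.713% and 0.164% of all genes, with Igfbp7 at -5.14 ± 0.58, Cdh5 at -4.71 ± 0.78 and Aqp1 at -4.20 ± 0.73; with only these 12 arrays 3 were lower, and Cdh5 (adjusted p = 0.146) and Aqp1 (0.22) were not among them. At 3 days it was higher in Kupffer cells for 7 and lower for 1, against 9.64% and 8.54%. Cd34 (5.82 ± 0.56) and Igfbp7 (4.62 ± 0.58) led the 7, and Selp was the lower one (-2.71 ± 0.66).

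With CD146 cells on both sides, Kupffer and monocytic cultures still differed. At 1 day 18 members were higher in Kupffer cells and 0 lower, against 6.28% and 7.94% of all genes, with Adgrl4 at 6.22 ± 0.48, Cdh5 at 4.73 ± 0.55, Cd34 at 3.62 ± 0.40 and Igfbp7 at 3.18 ± 0.41. At 3 days 8 were higher and 2 lower, against 13.9% and 11.9%, at a median shift of -0.12: Igfbp7 (5.81 ± 0.41), Cd34 (5.36 ± 0.40) and Cdh5 (2.87 ± 0.55) were higher and Selp lower (-2.92 ± 0.47). The 3-day Kupffer and monocytic cultures with CD146 cells also had means of 7.86 and 4.54 for bile duct genes, Ito cell means of 7.13, 6.91 and 6.97 on the Kupffer arrays and 5.43, 5.54 and 5.67 on the monocytic ones, and core macrophage means of 14.39 and 16.10; their part was not tested.

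Ito cells and HGF, the other additions, were read beside this. Ito cells left 30 members lower and 0 higher in Kupffer cells of 1 day, against 18% and 5.47% of all genes at a median shift of -0.24; after median centring 24 were lower, and with only these arrays 17. F8 read 4.21, 4.02 and 4.44 (-5.87 ± 0.42), Adgrl4 7.20, 7.08 and 7.23 (-5.73 ± 0.48) and Aqp1 3.79, 2.98 and 3.09 (-5.42 ± 0.52). Cdh5 read 9.69, 9.81 and 9.66 (-3.25 ± 0.55), not called with only these arrays (adjusted p = 0.0801). The F8 and Aqp1 arrays with Ito cells all lay under the negative controls, while those of Cdh5 stayed well above. Bile duct genes were 0 of 6 higher and 5 lower here (mean 4.32 against 6.86 in the control), hepatocyte genes 1 of 18 higher and 12 lower (5.74 against 6.81) and genes of Kupffer cell identity 0 of 14 higher and 9 lower (5.85 against 7.95), and their part was not tested. This comparison and those of CD146 cells and HGF share the Kupffer control arrays.

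With HGF, which adds no cells, 3 members were higher and 6 lower at 1 day, against 4.13% and 13.4% of all genes at a shift of -0.17. The split depended on the scaling, with 3 higher and 1 lower after median centring and 3 and 0 after quantile normalization, and no member was called with only these arrays (unadjusted p under 0.05 in 2). Selp read 10.14, 11.97 and 9.81 (1.89 ± 0.47), a call lost without HGF replicate 2 (adjusted p = 0.186) or control replicate 1 (0.0613). Plvap, the diaphragm protein of fenestrae, was higher by 1.64 ± 0.23, with both groups under the negative controls. Cdh5 read 11.26, 10.80 and 12.69, overlapping the control (-1.46 ± 0.55), and without the 3 arrays that stood apart its difference was 0.23 (adjusted p = 0.94). The count called was 3 without control replicate 1 or HGF replicate 2, 4 without control replicate 2, 5 without HGF replicate 1 and 16 without control replicate 3.

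After 3 days all additions left members higher in Kupffer cells than the control, HGF most of all by count. With HGF 18 were higher and 0 lower, against 14.5% and 13.1% (together 27.6%) of all genes. Cdh5 read 11.96, 10.53 and 11.20 with HGF (7.65 ± 0.55, adjusted p = 1.33e-14), Emcn 9.13, 7.74 and 8.41 (4.97 ± 0.36) and Cd34 10.67, 9.25 and 9.68 (5.16 ± 0.40). These arrays all lay far above the 3-day control. Others were Adgrl4 (3.85 ± 0.48), Ptprb (3.20 ± 0.46), Kdr (2.96 ± 0.45) and Igfbp7 (2.24 ± 0.41), and Lyve1 (2.18 ± 0.34), whose means lay under the negative controls in both groups. With Ito cells 11 were higher and 0 lower, against 14.5% and 12.3% (together 26.8%) at a shift of 0.11: Cdh5 read 7.71, 8.20 and 8.08 (4.31 ± 0.55, adjusted p = 2.24e-08), Cd34 8.90, 7.82 and 9.35 (3.87 ± 0.40), Adgrl4 8.04, 7.14 and 6.44 (2.94 ± 0.48) and Oit3 9.91, 9.59 and 9.70 (2.72 ± 0.42). In both comparisons hepatocyte and bile duct genes moved as well: Alb differed by 8.39 ± 0.47 with HGF and 8.08 ± 0.47 with Ito cells, and Krt7 by 10.55 ± 0.50 and 6.35 ± 0.50, while 10 and 8 of 13 core macrophage genes were lower. The part of these cell types was not tested.

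CD146 and Ito cells were compared directly. In Kupffer cells of 1 day 10 members were higher with CD146 cells and 3 lower, against 20.8% and 6.6% (together 27.4%) of all genes at a shift of 0.27, and after median centring 4 were higher and 5 lower. Adgrl4 (2.13 ± 0.48), F8 (1.70 ± 0.42) and Emcn (1.37 ± 0.36, both groups under the negative controls) were higher with CD146 cells; Selp (-4.27 ± 0.47), Pecam1 (-1.96 ± 0.37) and Igfbp7 (-1.97 ± 0.41) were lower. At 3 days 3 were higher, Igfbp7 (2.27 ± 0.41), Cd34 (2.01 ± 0.40) and Emcn (1.64 ± 0.36), and 1 lower, Oit3 (-1.95 ± 0.42), against 1.54% and 1.54% (together 3.08%). In monocytic cells of 1 day 2 were higher and 2 lower, against 16.8% and 3% (together 19.8%) at a shift of 0.30 (0 and 3 after median centring): Selp (-5.28 ± 0.47) and Adgrl4 (-2.24 ± 0.48) were lower with CD146 cells. Calcrl (0.71 ± 0.33) and Oit3 (1.01 ± 0.42) were the higher ones, and both lost the call after median centring. At 3 days 4 were higher and 0 lower, against 5.49% and 5.82%, with Selp at 4.08 ± 0.47 and Igfbp7 at 1.83 ± 0.41; Bmp2 and Stab2, the other 2, lay under the negative controls in both groups and lost the call without single arrays, among them CD146 replicate 3.

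In monocytic cells the other additions were read too. Ito cells of 1 day raised Adgrl4, 5.54, 5.26 and 5.07 against 3.03, 3.45 and 3.26 (2.33 ± 0.48, adjusted p = 0.00346, at a shift of -0.28), with no overlap and 2 of the 3 arrays above the negative controls of that group on average; Bmp2 was lower under the controls, so 1 was higher and 1 lower against 1.91% and 13.6% of all genes (2 and 0 after median centring). At 3 days Igfbp7 was lower with Ito cells (-4.32 ± 0.41) and with HGF (-4.86 ± 0.41), reading 6.94, 6.74 and 7.23 and 6.93, 6.44 and 5.93. Ito cell genes moved with it: their mean was 6.68 in the control of 3 days, 4.90 with Ito cells, 4.90 with HGF and 5.55 with CD146 cells, and they were 0 of 20 higher and 11 lower, 0 of 20 higher and 11 lower and 0 of 20 higher and 9 lower in that order. Their part in the Igfbp7 differences was not tested. These and the comparison with CD146 cells share the control arrays. With Ito cells 1 was higher (Flt1, under the negative controls, its call lost without any 1 of the control arrays) and 1 lower, against 5.8% and 6.66% (0 and 1 after quantile normalization), and with HGF 2 were higher, Calcrl (1.62 ± 0.33) and Oit3 (1.47 ± 0.42), and 2 lower, against 7.56% and 5.46% (1 and 2 after quantile normalization). The Oit3 call was lost after quantile normalization (adjusted p = 0.0515) and without MCSF replicate 1 (0.0954). With HGF of 1 day 11 members were lower, all under the negative controls, against 37.2% of all genes (37.5% in either direction) at a shift of -0.55, and none was after median centring (unadjusted p under 0.05 in 4) or quantile normalization (1).

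The change from 1 to 3 days in Kupffer cells was read with each addition too. With CD146 cells 6 members fell and 5 rose, against 5.93% and 18.7% of all genes at a shift of 0.16 (12 and 4 after median centring). Adgrl4 (-3.87 ± 0.48) and Cdh5 (-2.31 ± 0.55) fell, and Igfbp7 (4.73 ± 0.41) and Cd34 (2.69 ± 0.40) rose. In these groups the mean of bile duct genes went from 5.42 to 7.86 and that of Ito cell genes from 5.02 to 7.13, 6.91 and 6.97 on the 3 arrays of 3 days, while that of core macrophage genes went from 15.32 to 14.39, and the part of these cells was not tested. With Ito cells 3 fell and 9 rose, against 6.82% and 41.8% at a shift of 0.51, but 9 fell and 2 rose after median centring, so the balance of the list turned with the scaling; Cdh5 fell (-2.23 ± 0.55) and Cd34 rose (1.31 ± 0.40). With HGF 22 fell and 4 rose, against 8.32% and 34.4% at a shift of 0.30, among them Selp (-5.37 ± 0.47), Adgrl4 (-5.02 ± 0.48) and Aqp1 (-3.88 ± 0.52), while Cd34 rose (3.14 ± 0.40). Tested as interactions, which share the control arrays, the change over time was higher than the control's for 23 members with CD146 cells (9.56% of all genes), 33 with Ito cells (23%) and 16 with HGF (18.8%), and lower for 0, 0 and 0 (8.05%, 10.4% and 9.37%). Cdh5 differed by 7.49 ± 0.78, 7.57 ± 0.78 and 9.18 ± 0.78 in that order. The values with Ito cells and with HGF are relative to a median shift over all genes, which was 0.102 with HGF. With CD146 cells no shift was taken off.

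Kupffer and monocytic cultures were also compared under Ito cells and HGF. With Ito cells 8 members were higher in Kupffer cells and 1 lower at 1 day (2.23% and 0.774% of all genes), and 9 and 0 at 3 days (4.86% and 3.95%); the 1-day count was 5 without Kupffer Ito replicate 1. Cdh5 differed by 5.43 ± 0.55 and 4.38 ± 0.55 and Igfbp7 by 5.14 ± 0.41 and 5.26 ± 0.41. With HGF 34 were higher and 0 lower at 1 day (39.7% and 14.1%, at a shift of 0.40) and 13 and 1 at 3 days (9.8% and 10.2%). With HGF of 1 day 21 of 35 members lay above the negative controls in Kupffer cells and 7 in monocytic cells. Some of the 34 calls were therefore differences between background values. Adgrl4 led at 1 day (9.38 ± 0.48), followed by Igfbp7 (7.85 ± 0.41) and Cdh5 (7.65 ± 0.55), and Igfbp7 (8.18 ± 0.41), Cdh5 (7.58 ± 0.55) and Emcn (4.63 ± 0.36) at 3 days. Over all 4 conditions of 1 day, no Kupffer array of Cdh5 reached down to any monocytic array of its condition.

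Other genes of endothelium were read from lists beside the members. Of all genes, 9.73% were called higher and 11.6% lower between the controls of 1 day. From 1 to 3 days in MCSF the shares in Kupffer cells were 21.5% and 10.2%. With CD146 cells in Kupffer cells they were 1.32% and 2.46% at 1 day and 14% and 12.4% at 3 days. Of 15 ligands for vascular receptors, 4 were higher and 1 lower in the Kupffer than in the monocytic control of 1 day, with Bmp6, the iron-regulating BMP of sinusoidal endothelium, at 5.16 ± 0.41 and Angpt2, the angiopoietin stored by endothelial cells, at 5.20 ± 0.50. Of 17 endothelial transcription factors 6 were higher and 2 lower, led by the ETS factor Ets1 (3.69 ± 0.30) and the venous factor Nr2f2 (4.80 ± 0.47); of 17 further receptor and adhesion genes 6 were higher and 3 lower, led by Ecscr (3.93 ± 0.48). From 1 to 3 days in MCSF the ligands were 3 of 15 higher and 5 lower, the factors 1 of 17 higher and 8 lower and the receptors 4 of 17 higher and 8 lower: Bmp6 (-5.26 ± 0.41), Angpt2 (-5.86 ± 0.50), Ets1 (-4.21 ± 0.30), Nr2f2 (-3.07 ± 0.47) and the lectin-like Cd93 (-4.61 ± 0.28) fell, and Vegfb rose (1.98 ± 0.28). In Kupffer cells with CD146 cells of 1 day the ligands were 0 of 15 higher and 5 lower, with Adm, which encodes adrenomedullin, at -3.19 ± 0.37. The factors there were 0 of 17 higher and 4 lower, with Ets1 at -3.45 ± 0.30, and the receptors 1 of 17 higher and 6 lower, the higher one being Cav1 (caveolin) at 1.37 ± 0.23. At 3 days the ligands were 3 of 15 higher and 2 lower and the factors 6 of 17 higher and 0 lower. The receptors were 2 of 17 higher and 5 lower. The ligand counts and that of the higher receptors were near the shares of all genes. Angpt2 differed by 4.50 ± 0.50, Cd93 by 3.38 ± 0.28, Bmp4 by 2.84 ± 0.34 and Nr2f2 by 2.25 ± 0.47. In monocytic cells with CD146 cells of 1 day, Cd93 was lower (-2.90 ± 0.28) and Cav1 higher (1.98 ± 0.23). There 0 of 17 factors were called higher, where 1% of all genes were. At 3 days Vegfa was higher (2.33 ± 0.37), a call lost with only the arrays compared in the limma fit (adjusted p = 0.0523).

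Scavenger genes that sinusoidal endothelium and macrophages both make did not follow the members throughout. Of 10, 4 were higher and 3 lower in the Kupffer control of 1 day than in the monocytic one. The shares of all genes were 9.73% and 11.6%. By 3 days in MCSF 0 rose and 6 fell in Kupffer cells, against 21.5% and 10.2% of all genes. With CD146 cells of 3 days 5 were higher and 1 lower in Kupffer cells, against 14% and 12.4%. The lower one was the Fc receptor gene Fcgr2b (-6.10 ± 0.40).

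**Figure D4:**
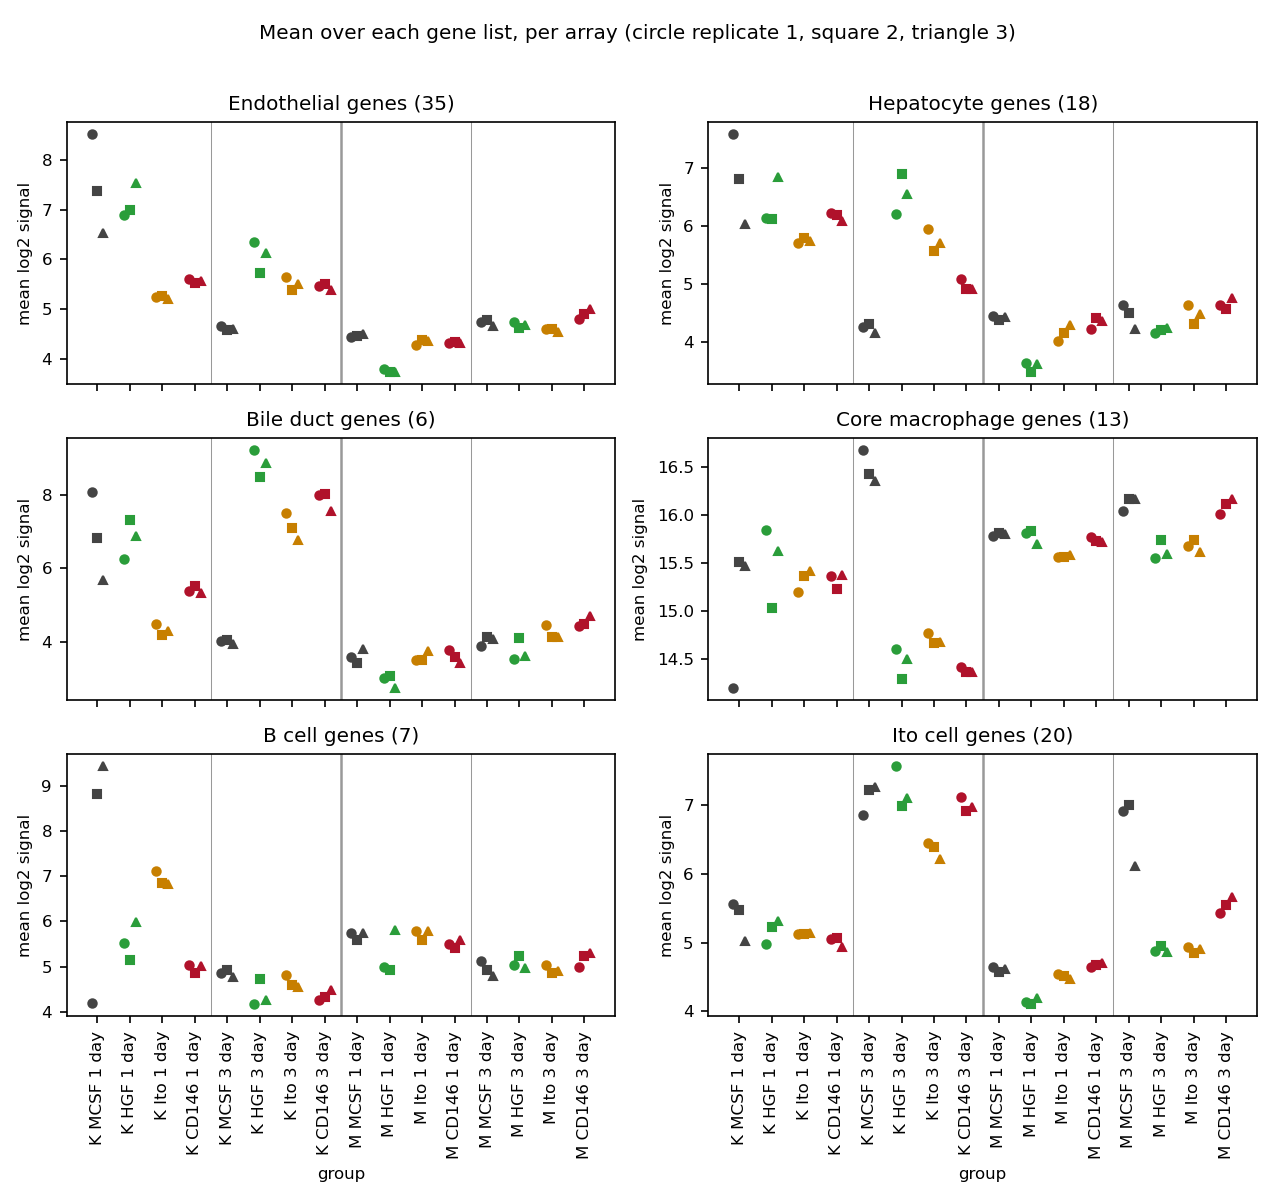
Mean log2 level over the endothelial genes and over marker lists of 5 other cell types on each of the 48 arrays (circle replicate 1, square replicate 2, triangle replicate 3; K Kupffer, M monocytic). Kupffer control replicate 1 of 1 day is the highest in endothelial, hepatocyte and bile duct genes and the lowest in core macrophage and B cell genes of its group.

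The genes outside the list whose group means ran most like the member mean were taken by Pearson correlation, as a description over 16 group means that share arrays. They were Tspan12 (0.97), a tetraspanin that aids Wnt signalling in vessels, then Mest, Ecscr, Bmp6, S100a16, Mup20, Anxa13, Sema6a, Prex2 and Mup21. Over the 8 Kupffer group means they were Eomes (0.98), Slc9a9, Bmp6, Mest, Fmo1, Cyp4b1, Tspan12, Prex2, Apoa2 and Hs3st3b1. Mup20, Mup21 and Apoa2 are genes of hepatocytes, and probes may not tell the Mup family apart. Hepatocyte genes averaged 6.81 in the Kupffer control of 1 day and 4.24 in that of 3 days.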

How the data were processed

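The values are RMA log2 signals, 1 per probe set and array, that the authors made with the Transcriptome Analysis Console, per the submitters' processing notes. Its version and a genome build are not given in the sources used here. They ranged from 0.88 to 19.93. The deposited file has 28846 probe sets; 6640 controls (5222 negative) and 2634 probe sets without a gene symbol were set aside, and for 55 genes with several probe sets the one with the highest mean was used, leaving 19505 genes. Groups came from the labels. limma 3.58.1 in R 4.3.3 fitted 1 mean per group over 48 arrays, with eBayes and Benjamini-Hochberg adjustment over all genes in each of 34 contrasts. The members and lists were chosen with earlier results of these data known. Values on each array are printed for members at least 2 log2 units above the negative controls in some group; of each other list, up to 4 genes with the smallest adjusted p could be named. Samples with equal replicate numbers did not deviate together (mean correlation -0.0103, against 0.0055 for different numbers; in 1 of 120 group pairs all 3 exceeded 0.1), and the fit was therefore unpaired. The fit was tested on simulated data; a gene not called is not shown to be unchanged. Alternatives were quantile normalization, median centring, leaving out the dimmest 25 percent, a trend and robust variance, array weights, the replicate block, only the arrays compared, the mean of all probe sets, a 2-fold minimum, each array left out in turn, and the 3 arrays that stood apart left out together. The number of arrays limits the precision. Genes of the other lists without a probe set named for them were not analysed here. Python 3.11.15, pandas 2.3.3 and matplotlib 3.10.9 served for joins and plots.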

Additional observations from a re-analysis of the deposited data

Results flagged for a closer look

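Differences between groups in their response were tested as interaction terms in limma, over the group means of 3 arrays each. The change of Kupffer cells from 1 to 3 days differed from that of the MCSF control in 23 members with CD146 cells, 33 with Ito cells and 16 with HGF, all in the higher direction. Of all genes, 9.56%, 23% and 18.8% were called in that direction. With CD146 cells the gene differences were Cdh5 by 7.49 (adjusted p = 7.51e-10), Igfbp7 by 6.85 (adjusted p = 3.1e-12), Selp by 6.08 (adjusted p = 2.13e-09). With Ito cells they were Adgrl4 by 8.68 (adjusted p = 1.33e-13), Cdh5 by 7.57 (adjusted p = 1.47e-10), F8 by 6.23 (adjusted p = 1.32e-11). With HGF they were Cd34 by 5.64 (adjusted p = 1.71e-10), Cdh5 by 9.18 (adjusted p = 3.43e-12), Emcn by 4.92 (adjusted p = 3.2e-10). The differences with Ito cells and with HGF are relative to a median shift over all genes, and those with CD146 cells are not. These 3 tests share the Kupffer control arrays, whose replicate 1 of 1 day stood apart; without the 3 arrays that stood apart the counts were 21, 30 and 14.

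The response to CD146 cells differed between Kupffer and monocytic cells in 15 members at 1 day and 8 at 3 days, against 0.877% and 18.2% of all genes. The 3-day count of members was thus close to the share of all genes. At 1 day the Kupffer minus monocytic differences were Igfbp7 by -5.14 (adjusted p = 2.32e-07), Cdh5 by -4.71 (adjusted p = 0.000325), Aqp1 by -4.20 (adjusted p = 0.000606). At 3 days they were Cd34 by 5.82 (adjusted p = 1.26e-10), Igfbp7 by 4.62 (adjusted p = 3.62e-08), Selp by -2.71 (adjusted p = 0.00199). Selp thus differed in the other direction from the first 2.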

How the results depend on the processing

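Of 3313 values of single genes under an alternative, 3183 kept their direction and call, 129 lost the call and 1 reversed: Cdh5 with HGF minus MCSF in Kupffer cells of 1 day, at 0.23 without the 3 arrays that stood apart. Counts of called members within 1.5 times of the reported one are not listed; the reported counts of the others were 22 for Kupffer CD146 minus MCSF 1 day, 30 for Kupffer Ito minus MCSF 1 day, 9 for Kupffer HGF minus MCSF 1 day, 1 for monocytic CD146 minus MCSF 1 day, 2 for monocytic Ito minus MCSF 1 day, 11 for monocytic HGF minus MCSF 1 day, 13 for Kupffer CD146 minus Ito 1 day, 4 for Kupffer CD146 minus Ito 3 day, 4 for monocytic CD146 minus Ito 1 day, 5 for Kupffer minus monocytic, MCSF 3 day, 9 for Kupffer minus monocytic, Ito 1 day, 9 for Kupffer minus monocytic, Ito 3 day, 11 for Kupffer CD146 3 minus 1 day, 12 for Kupffer Ito 3 minus 1 day, 26 for Kupffer HGF 3 minus 1 day, 8 for monocytic MCSF 3 minus 1 day, 16 for Kupffer time change, HGF minus MCSF, 15 for CD146 response, Kupffer minus monocytic 1 day, 2 for monocytic Ito minus MCSF 3 day, 4 for monocytic CD146 minus Ito 3 day, 2 for monocytic CD146 minus MCSF 3 day and 4 for monocytic HGF minus MCSF 3 day. With only the arrays compared in the fit the counts were 4 for Kupffer CD146 minus MCSF 1 day, 17 for Kupffer Ito minus MCSF 1 day, 0 for Kupffer HGF minus MCSF 1 day, 2 for monocytic CD146 minus MCSF 1 day, 7 for monocytic Ito minus MCSF 1 day, 20 for monocytic HGF minus MCSF 1 day, 20 for Kupffer CD146 minus Ito 1 day, 9 for Kupffer CD146 minus Ito 3 day, 8 for monocytic CD146 minus Ito 1 day, 2 for Kupffer minus monocytic, MCSF 3 day, 15 for Kupffer minus monocytic, Ito 1 day, 14 for Kupffer minus monocytic, Ito 3 day, 17 for Kupffer CD146 3 minus 1 day, 19 for Kupffer Ito 3 minus 1 day, 15 for Kupffer HGF 3 minus 1 day, 13 for monocytic MCSF 3 minus 1 day, 9 for Kupffer time change, HGF minus MCSF and 3 for CD146 response, Kupffer minus monocytic 1 day. With array weights they were 3 for monocytic CD146 minus MCSF 1 day, 4 for monocytic CD146 minus MCSF 3 day, 6 for monocytic Ito minus MCSF 1 day, 4 for monocytic Ito minus MCSF 3 day, 22 for monocytic HGF minus MCSF 1 day, 7 for monocytic HGF minus MCSF 3 day, 22 for Kupffer CD146 minus Ito 1 day, 10 for Kupffer CD146 minus Ito 3 day, 9 for monocytic CD146 minus Ito 1 day, 16 for Kupffer minus monocytic, Ito 1 day, 19 for Kupffer CD146 3 minus 1 day, 20 for Kupffer Ito 3 minus 1 day, 13 for monocytic MCSF 3 minus 1 day and 24 for CD146 response, Kupffer minus monocytic 1 day. After median centring they were 4 for Kupffer HGF minus MCSF 1 day and 0 for monocytic HGF minus MCSF 1 day, and after quantile normalization 3 for Kupffer HGF minus MCSF 1 day, 1 for monocytic Ito minus MCSF 3 day and 0 for monocytic HGF minus MCSF 1 day. Without the 3 arrays that stood apart they were 3 for Kupffer HGF minus MCSF 1 day, 5 for monocytic Ito minus MCSF 1 day, 18 for monocytic HGF minus MCSF 1 day, 20 for Kupffer CD146 minus Ito 1 day, 8 for Kupffer CD146 minus Ito 3 day and 16 for Kupffer minus monocytic, Ito 1 day. With a 2-fold minimum they were 1 for monocytic Ito minus MCSF 1 day, 1 for monocytic Ito minus MCSF 3 day, 6 for monocytic HGF minus MCSF 1 day and 2 for monocytic CD146 minus Ito 3 day, and without the dimmest 25 percent of genes 1 for monocytic Ito minus MCSF 1 day, 4 for monocytic HGF minus MCSF 1 day and 2 for monocytic CD146 minus Ito 3 day. Leaving out single arrays gave 3 to 16 for Kupffer HGF minus MCSF 1 day, 1 to 2 for monocytic Ito minus MCSF 1 day, 1 to 2 for monocytic Ito minus MCSF 3 day, 2 to 3 for monocytic CD146 minus Ito 1 day, 2 to 3 for monocytic CD146 minus Ito 3 day, 2 to 4 for Kupffer minus monocytic, MCSF 3 day and 5 to 7 for Kupffer minus monocytic, Ito 1 day. The cause of these changes was not tested, except that a 2-fold minimum can only lower a count and the filter removes dim genes from the test. The replicate block, run although the numbers do not pair the arrays, moved no count of called members by over 1.5 times; for Kupffer CD146 minus MCSF of 3 days it gave 10 in place of 12. Signal over background limits the 12 members under the negative controls in every group, whose differences are between background values.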
